A study of Homo sapiens with 9 samples.

Results

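The FGFBP3-positive hypoblast-like cells were a small population of the human extra-embryoids (hEEs), 3D aggregates of human pluripotent stem cells that form an inner epiblast-like and an outer hypoblast-like compartment. They were chosen by unique molecular identifier (UMI) counts, where 1 UMI stands for 1 captured RNA molecule. Cells were kept between a lower and an upper UMI limit (the shallowest kept D4 cell had 3439 UMIs and the deepest kept D6 cell 27461) with at most 10% of UMIs from mitochondrial genes. Of these, a member had at least 3 UMIs of FN1, 0 of SOX2, at most 5 of POU5F1, at least 2 of FGFBP3, at most 1 each of CER1 and NPPB, and at most 1 of GYPE, GYPB and RIPPLY1 together. The rule took 124 of 19248 kept cells, out of 22426 in the files. There were 98 members among 9151 kept cells at day 4 (D4) and 26 among 10097 at day 6 (D6). The comparison cells met the same FN1, SOX2 and POU5F1 limits, called the gate below, but had 0 FGFBP3 UMIs. They numbered 3438 at D4 and 3212 at D6.

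Both groups came from ESI017, a wild-type human embryonic stem cell line kept in hEP medium before aggregation. By the paper's methods, aggregates formed in a differentiation medium that at first held a ROCK inhibitor. They were later moved to a medium made for cultured embryos. No other treatment is named for these libraries. By the labels, about 200 aggregates with an inner and an outer compartment were collected at each time point, dissociated and loaded as 1 droplet-based 3′ scRNA-seq library a day. Wells from different clones and passages were pooled before loading, so the files keep no replicates, and the day and the library cannot be told apart. The outer layer took longer to dissociate than the inner cells, and its effect on the shares of cells was not tested. The libraries held 124234102 UMIs at D4 and 136746727 at D6 in kept cells, of which members held 1302094 and 323260. All intervals below are exact 95% intervals that cover counting error only. Cells are not replicates, and no test was run.

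FGFBP3 encodes a secreted, heparin-binding protein that binds fibroblast growth factors and releases them from the extracellular matrix, where they can reach their receptors. The hypoblast is the extra-embryonic endoderm that lines the early embryo. It lays down basement membrane, makes apolipoproteins and gives rise to the yolk sac endoderm, and a patch of it, the anterior visceral endoderm (AVE), secretes antagonists of NODAL and WNT. FGF signalling drives its specification in the mouse. RNA of FGFBP3 is not specific to endoderm: in these libraries it was most abundant outside the gate, as described below.

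The members carried the transcription factors of hypoblast. Levels are given as CPM, the summed UMIs of a group scaled to a total of 1000000. Because 1 molecule gives 1 UMI from its 3′ end, CPM does not grow with transcript length. GATA4 was at 61.4 CPM in the D4 members, against 1.31 CPM in cells with SOX2 RNA and fewer than 3 FN1 UMIs, which are referred to as epiblast-like below (3760 cells at D4, 5128 at D6). GATA6 stood at 96.8 against 1.89 CPM, and FOXA2 at 138 against 3.48 CPM. All 3 are endoderm regulators, and all were far above the epiblast-like level. APOA1 RNA, which encodes the main protein of high-density lipoprotein, was at 935 CPM in the D4 members and 21.6 CPM in epiblast-like cells. The basement membrane collagen COL4A1 was at 433 and 52.5 CPM. At D6 GATA4 was at 74.2 CPM in members, GATA6 at 257 CPM and SOX17, another endoderm factor, at 111 CPM. The receptor PDGFRA was close to absent at D4, with 3 UMIs in 98 members (2.30 CPM), and at 105 CPM at D6. Of the 30 genes of the hypoblast list, 2 had 0 UMIs in the D4 members, FOXF1 and AFP, and 3 in the D6 members, FOXF1 and SOX7 among them. With these exceptions the label hypoblast-like matched the RNA of the members.

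**Figure D1:**
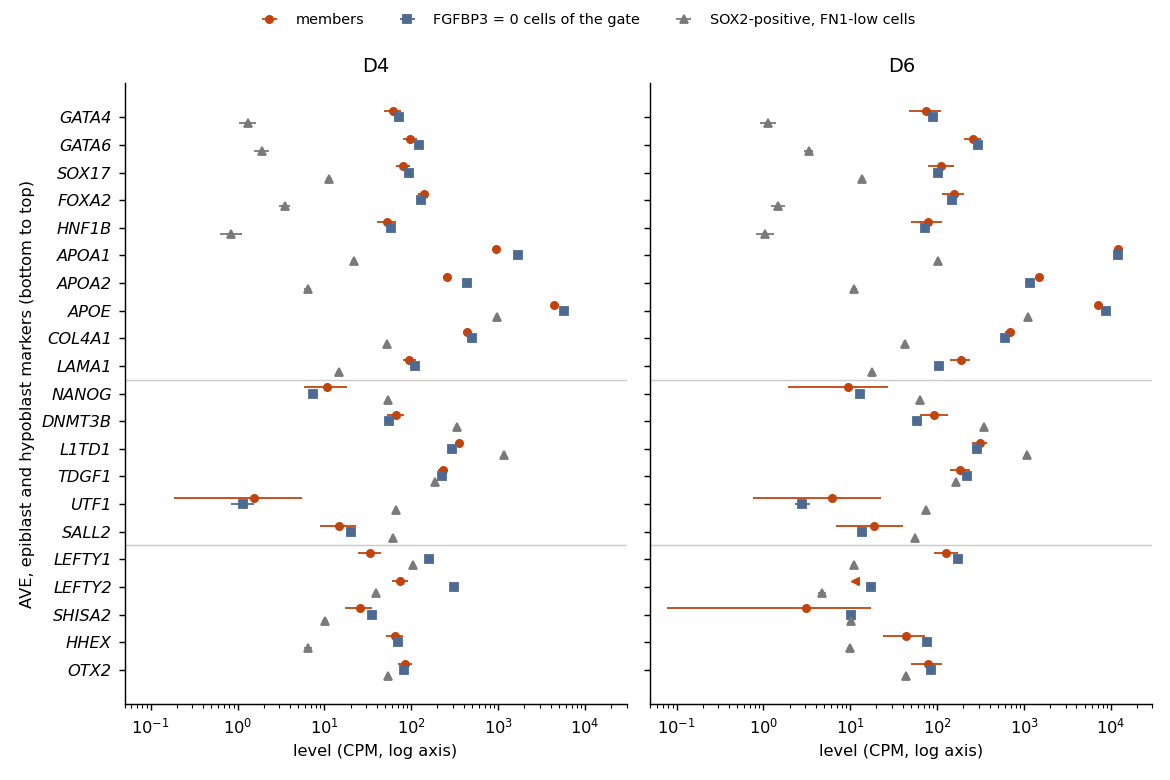
Level of lineage markers in CPM (log axis) at D4 and D6, with exact 95% Poisson intervals, in members (red circles), FGFBP3 = 0 cells of the gate (blue squares) and epiblast-like cells (grey triangles); a left-pointing triangle is the upper limit of a gene with 0 UMIs. Members lie beside the FGFBP3 = 0 cells for the endoderm factors (GATA6 at D4, 96.8 and 123 CPM) and far above the epiblast-like cells (1.89 CPM).

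Some markers of other lineages were at or near 0 and others were not. Of the epiblast RNAs, UTF1 was at 1.54 CPM and the pluripotency-associated transcript ESRG at 8.45 CPM in the D4 members, against 67.5 and 452 CPM in epiblast-like cells. NANOG was at 10.8 CPM against 53.8 CPM. L1TD1, an RNA-binding protein of pluripotent cells, was at 350.2 CPM in members, 291 CPM in FGFBP3 = 0 cells and 1163 CPM in epiblast-like cells. TERF1 was at 91.4 CPM and DPPA4 at 77.6 CPM in the D4 members. The whole epiblast list summed to 2103.5 CPM in members, 2053.3 in FGFBP3 = 0 cells and 5223.8 in epiblast-like cells at D4, with EPCAM its most abundant gene in members (548 CPM). Of the amnion markers, TFAP2B, DLX5, VTCN1 and KRT7 had 0 UMIs in the D4 members, and the list sum of 2933 CPM was nearly all S100A10 (2792 CPM); the same list summed to 3942.4 CPM in FGFBP3 = 0 cells. Of 15 trophoblast genes 13 had 0 UMIs on each day, the exception by level being GATA3 at 229.6 CPM (D4) and 198 CPM (D6). Of the extra-embryonic mesoderm genes, DCN, LUM, COL1A2, COL3A1, COL6A3, HAND2 and HGF were at 0 at D4, and the list summed to 28.4 CPM. The haemato-endothelial list summed to 5.38 CPM, with 6 of 10 genes at 0.

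FGFBP3 itself is described without a test, since it chose the members. The D4 members held 267 FGFBP3 UMIs, a level of 205 CPM [181, 231], and the D6 members 55 UMIs, 170.1 CPM [128, 221]. Most members sat at the limit of the rule: 65 of 98 at D4 and 23 of 26 at D6 had exactly 2 UMIs. Just outside it, 376 D4 and 265 D6 cells met every other limit with 1 UMI. The highest member had 9 UMIs at D4 and 3 at D6, and the gate cell with the most, 25 at D4, was not a member. A group of 50 D4 cells met every limit but that on POU5F1, 20 every limit but that on CER1, and 10 every limit but that on NPPB. At D6 these numbers were 5, 0 and 3. At D4, 6 members had exactly 3 FN1 UMIs and 8 cells failed by having 2. At D6 these were 3 and 1.

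Across the gate FGFBP3 was sparse. The 4061 D4 gate cells averaged 18.8 CPM, and 15.3% of them had at least 1 FGFBP3 UMI. Of these cells 480 had 1 UMI, 92 had 2 and 51 had at least 3. At D6 the gate averaged 9.29 CPM, with 30 cells at 2 UMIs or more and 3 at 3. An expected count was taken with every gate cell at the gate's mean FGFBP3 level for its day (18.8 CPM at D4, 9.29 CPM at D6). Counting at each cell's depth would then give on average 84.3 cells with exactly 2 UMIs at D4, beside the 92 seen. At D6 it would give 20.5, beside 27. For 3 or more UMIs at D4 it would give 8.06, beside 51. For 0 UMIs at D4 it would give 3264, beside 3438, and for 1 UMI 705, beside 480. At D6 it would give 344 cells with 1 UMI, beside 325. These counts chose the members, and the values are a description with no test.

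**Figure D2:**
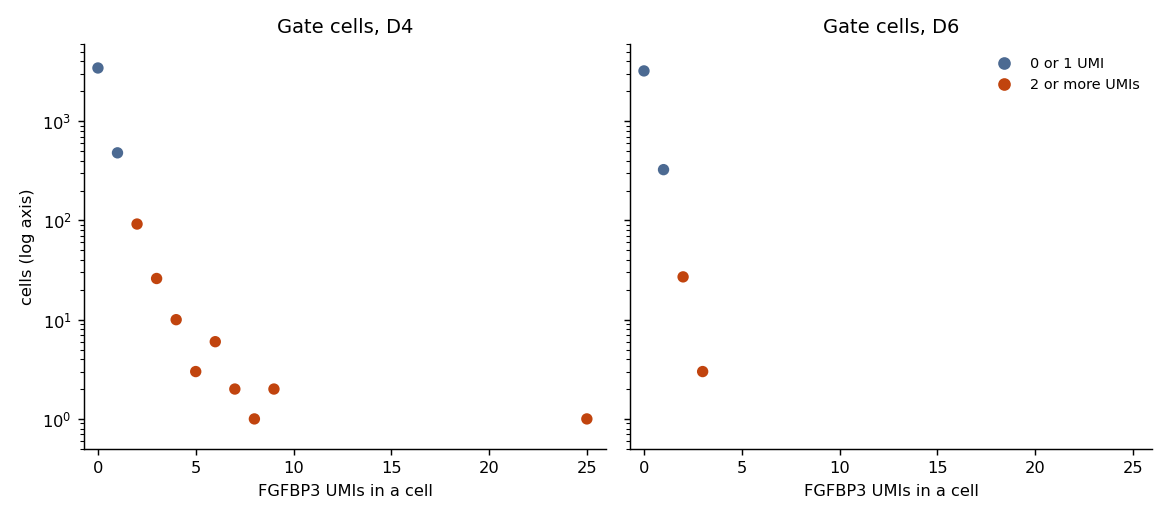
Number of gate cells (log axis) with each number of FGFBP3 UMIs at D4 and D6 (blue points for 0 or 1 UMI, red for 2 or more). At D4 51 cells have at least 3 UMIs; at D6 only 3 cells have 3, and none more.

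The gate was not where FGFBP3 was highest. Epiblast-like cells were at 115 CPM at D4 and 92.8 CPM at D6, and 70.6% and 64.2% of them had an FGFBP3 UMI. Their median depth was 15098.5 UMIs at D4 against 12292.5 in members and 10885 in FGFBP3 = 0 cells. The gate thus held 16.3% of the epiblast-like FGFBP3 level at D4 and 10.0% at D6. The same percentage differed widely between epiblast RNAs at D4: 1.67% for UTF1, 1.89% for ESRG, 6.57% for POU5F1, 11.3% for USP44, 13.9% for TERF1, 16.5% for DNMT3B, 17.7% for CRABP1, 20.7% for DPPA4, 25.3% for L1TD1 and 33.0% for SALL2. DNMT3B and CRABP1 were close to FGFBP3 in it at D4. At D6, beside the 10.0% of FGFBP3, USP44 was at 10.9%, TERF1 at 12.7%, DNMT3B at 17.2% and CRABP1 at 6.64%. The D6 percentage was 1.66% for ESRG, 3.00% for POU5F1 and 3.88% for UTF1. It was 20.6% for DPPA4, 24.9% for SALL2 and 26.7% for L1TD1. In D4 members it ran from 1.87% for ESRG and 2.28% for UTF1 over 13.9% for POU5F1 and 19.5% for DNMT3B to 30.1% for L1TD1 and 37.2% for CRABP1. At D4 9.18% of members had over 20000 UMIs, against 3.87% of FGFBP3 = 0 cells, and at D6 0% against 3.77%. The part of free RNA and of droplets with an epiblast-like and a hypoblast-like cell in these values was not tested. Cells with at least 3 FN1 UMIs that failed on SOX2 or POU5F1 (648 at D4, 633 at D6) were at 95.4 and 47.6 CPM of FGFBP3.

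Members were fewer at D6. At D4 1.07% [0.87, 1.30] of kept cells were members, and at D6 0.258% [0.168, 0.377] were. The log2 ratio of these shares was -2.06 [-2.74, -1.42]. Within the gate, which itself took 44.4% and 35.3% of the kept cells, their share was 2.41% [1.96, 2.93] and 0.729% [0.477, 1.07]. The difference in share depended on the rule: the shares were 5.18% and 2.88% of kept cells with at least 1 FGFBP3 UMI, and 0.208% and 0.139% with 0 POU5F1 UMIs. With at least 3 FGFBP3 UMIs they were further apart, at 0.361% and 0.0297%. Median depth of members was close on both days, 12292.5 and 12183 UMIs, and their median mitochondrial share was 3.69% and 1.64%, against 3.76% and 2.10% in the FGFBP3 = 0 cells. After every cell was thinned to the lower UMI limit, members had a median of 1723.5 genes at D4 and FGFBP3 = 0 cells 1697. No member carried one of the 40 cell barcodes that the libraries share.

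Against the FGFBP3 = 0 cells, the D4 members differed in few genes. Of 8520 genes with a mean of at least 10 CPM over both groups, 22 (0.258%) were at least 2-fold higher in members and 28 (0.329%) at least 2-fold lower, and the interval of the ratio left out 0 on the log2 scale for all 50 of them. The median log2 ratio of all genes was 0.02. At a mean of at least 25 CPM 4 genes were at least 2-fold higher, LINC00467, CRABP1, RAB15 and ERCC6L. Only LEFTY1 and LEFTY2 were at least 2-fold lower at that level. ERCC6L was at 19.8 CPM in FGFBP3 = 0 cells and reached a mean of 25 CPM through the members alone. The ratios that follow are of genes outside the rule, and values of POU5F1 and FGFBP3, which the rule used, are given beside them as a description.

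The long non-coding RNA LINC00467 had the largest D4 ratio among the genes named at D4. It was at 126 CPM in the D4 members, from 164 UMIs in 55 of the 98, and at 40.4 CPM in FGFBP3 = 0 cells, a log2 ratio of 1.64 [1.40, 1.87]. In the D6 library, which took no part in naming it, it was at 40.2 CPM in members and 16.8 CPM in FGFBP3 = 0 cells, 1.26 [0.34, 2.04]. The D6 value rests on 13 UMIs in 4 members, and was -0.71 with cells thinned to the lower UMI limit, where 3.85% of the 26 members kept a UMI of it. The 14 D6 members with 0 POU5F1 UMIs had 0 UMIs of it, and 12 of the 13 were in the 3 members with 3 to 5 POU5F1 UMIs. LINC00467 lies at chr1:211382755-211432535 (GRCh38). It was at 13.3 CPM in epiblast-like cells at D4, below both groups of the gate, so its direction differs from that of FGFBP3 between the compartments.

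CRABP1 encodes a cellular retinoic acid binding protein. It was at 151 CPM in the D4 members, from 197 UMIs in 62 of them, and 67.6 CPM in FGFBP3 = 0 cells, 1.16 [0.95, 1.37]. At D6 the levels were 92.8 and 28.6 CPM, 1.70 [1.13, 2.22], from 12 of 26 members. CRABP1 was thus more than 2-fold higher in members in both libraries under the main rule. Over the alternatives that gave a ratio, its log2 ratio ran from 0.22 to 1.87 at D4 and from 0.01 to 1.75 at D6. Unlike LINC00467 it was abundant in epiblast-like cells, at 406.5 CPM at D4. RAB15, a small GTPase of endosomes, was at 74.5 CPM in the D4 members and 33.8 CPM in FGFBP3 = 0 cells, 1.14 [0.83, 1.44], and at 10.96 CPM in epiblast-like cells. At D6 RAB15 was at 83.5 and 60.9 CPM, 0.46 [-0.15, 1.00], and that interval includes 0. ERCC6L, a DNA translocase of mitosis, was at 41.5 CPM in D4 members and 19.8 CPM in FGFBP3 = 0 cells, 1.07 [0.64, 1.47], but had 1 UMI in the D6 members, 3.09 against 12.2 CPM.

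The other 11 genes named as highest at D4 had log2 ratios from 0.75 to 0.90. TRIM2, an E3 ubiquitin ligase, was at 53.8 CPM in D4 members and 30.8 CPM in FGFBP3 = 0 cells, 0.80 [0.44, 1.15], and at 58.8 and 24.0 CPM at D6, 1.29 [0.55, 1.94]. TRIM2 therefore stood higher in members on both days. PDK1, a kinase that limits pyruvate entry into mitochondria, was at 111 and 63.2 CPM at D4, 0.81 [0.55, 1.05], and at 37.1 and 39.3 CPM at D6. INSIG1, which restrains sterol synthesis, was at 33.0 and 18.6 CPM at D4, 0.83 [0.35, 1.27]. MOBP was at 33.8 and 18.2 CPM, 0.90 [0.42, 1.33], and C9orf135 at 43.8 and 24.7 CPM, 0.82 [0.41, 1.21]. Among cells with 0 POU5F1 UMIs both ratios turned, MOBP to -1.85 (4.24 CPM from 1 UMI in 19 members, against 15.3 CPM) and C9orf135 to -0.67 (12.7 CPM from 3 UMIs, against 20.2 CPM). HELLPAR, ARHGEF7, DSE, HIF1AN, PDPN and NADK2 made up the rest. INSIG1, MOBP, C9orf135, HELLPAR, ARHGEF7 and HIF1AN were under 25 CPM in FGFBP3 = 0 cells and reached the minimum for naming through the members alone.

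**Figure D3:**
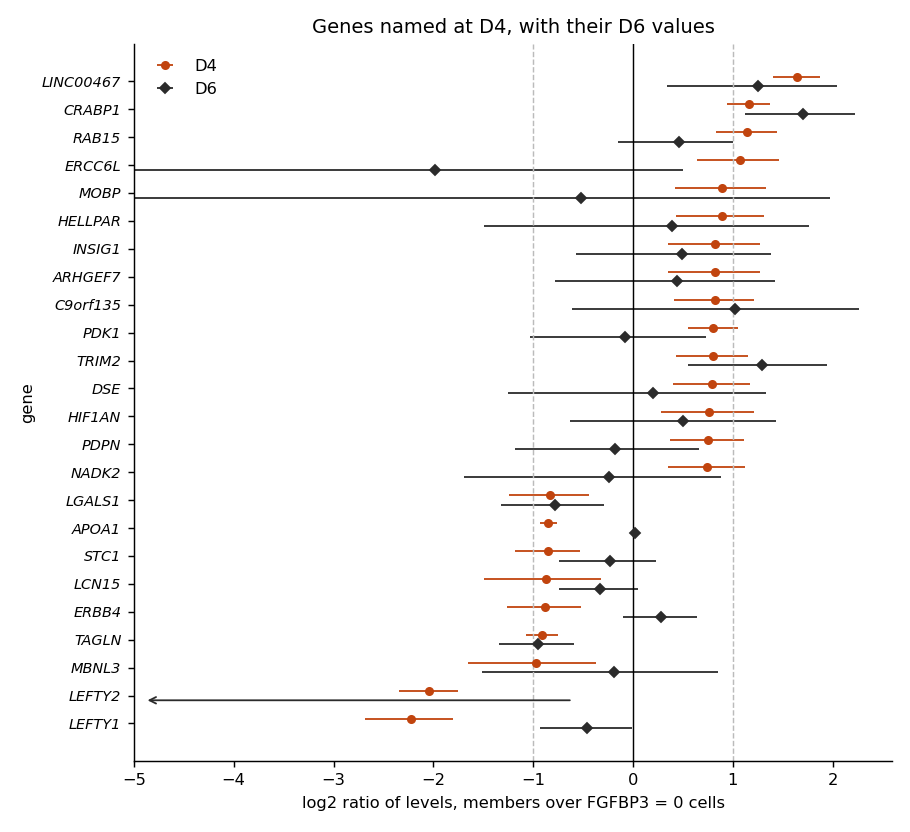
Log2 ratio of members over FGFBP3 = 0 cells for 24 of the genes named at D4 (15 of the highest and 9 of the lowest), at D4 and at D6, with exact 95% intervals; dashed lines mark 2-fold and an arrow an upper bound for a gene with 0 UMIs in members (LEFTY2 at D6). CRABP1 (1.16 and 1.70) lies past 2-fold on both days, as does LINC00467 (1.64 and 1.26), whose D6 value rests on 4 members and turns to -0.71 with thinned cells.

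The promoters of FGFBP3, which chose the members, and of CRABP1, the gene with the largest D4 ratio of those named at D4 that had a promoter in the reference table, are shown here. The 250 bases before each start are from RefSeq (GRCh38.p14), 5′ to 3′ on the strand of the gene. Capitals mark GATAA, the core of GATA factor motifs, searched on both strands (reverse TTATC) and found in 20.4% of 35116 promoters of this length. FGFBP3 lies on the minus strand with its promoter at chr10:91909487-91909736, and CRABP1 on the plus strand with its promoter at chr15:78340103-78340352.
FGFBP3: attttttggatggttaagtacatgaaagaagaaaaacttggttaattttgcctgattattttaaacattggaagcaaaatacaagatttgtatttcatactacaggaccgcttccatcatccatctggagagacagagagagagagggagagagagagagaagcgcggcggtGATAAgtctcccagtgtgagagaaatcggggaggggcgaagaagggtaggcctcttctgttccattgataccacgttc
CRABP1: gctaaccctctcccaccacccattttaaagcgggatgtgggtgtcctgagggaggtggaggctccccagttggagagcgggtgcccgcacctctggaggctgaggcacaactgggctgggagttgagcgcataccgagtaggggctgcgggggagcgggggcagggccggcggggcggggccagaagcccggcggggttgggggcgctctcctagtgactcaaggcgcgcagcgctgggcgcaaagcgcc

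The FGFBP3 window held 1 GATAA, 78 to 74 bases before the start, and the CRABP1 window none. The forkhead letters TGTTTAC (in 2.98% of promoters) and the octamer ATGCAAAT (1.63%), also searched on both strands, were in neither. FGFBP3 was 43.2% G and C with 7 CpG dinucleotides and CRABP1 70% with 18, around a median of 58% and 11 for all promoters. Of FGFBP3 and the 15 genes highest at D4, 12 had a promoter in the table; LINC00467, RAB15, C9orf135 and HELLPAR did not.

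The levels of genes named at D4 were also taken by the number of FGFBP3 UMIs. These genes were chosen for being higher in members, so only the order within members, and the cells with 1 UMI, are not fixed by that choice. Among gate cells within the members' limits, LINC00467 was at 40.0 CPM in cells with 0 FGFBP3 UMIs, 51.9 with 1, 101.7 with 2 and 177 with at least 3. CRABP1 was at 70.1, 78.5, 106 and 247 CPM in the same order, and RAB15 at 33.5, 32.2, 61.0 and 103 CPM. These 3 were highest in the 33 members with at least 3 FGFBP3 UMIs, and RAB15 was no higher with 1 UMI than with 0. The RAB15 level came from the 14 members with at least 4 UMIs, at 179 CPM, since the 19 with exactly 3 were at 46.2 CPM from 11 UMIs. LINC00467 was at 147 and 218 CPM in these groups of 19 and 14. APOA2 was lower with each step, at 444, 419, 292 and 179.8 CPM. Of the other genes named, ERCC6L was at 44.1 CPM with 2 UMIs and 36.0 CPM with at least 3, HELLPAR at 40.7 and 26.4, PDPN at 56.5 and 36.0, INSIG1 at 38.4 and 21.6, and ARHGEF7 at 35.0 and 28.8 CPM, so that these 5 were lower with more FGFBP3 UMIs. The rest of the highest D4 genes, PDK1, TRIM2, DSE, NADK2, MOBP, C9orf135 and HIF1AN, were higher with at least 3 UMIs than with 2. PDK1 was at 143 CPM with exactly 3 UMIs and 212 CPM with at least 4, beside 111 CPM in all D4 members. APOA1 was not ordered as APOA2 was, at 1639.8, 1419, 880.4 and 1049.8 CPM. POU5F1, which the rule limits, was at 73.9, 93.8, 140.1 and 208.5 CPM.

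**Figure D4:**
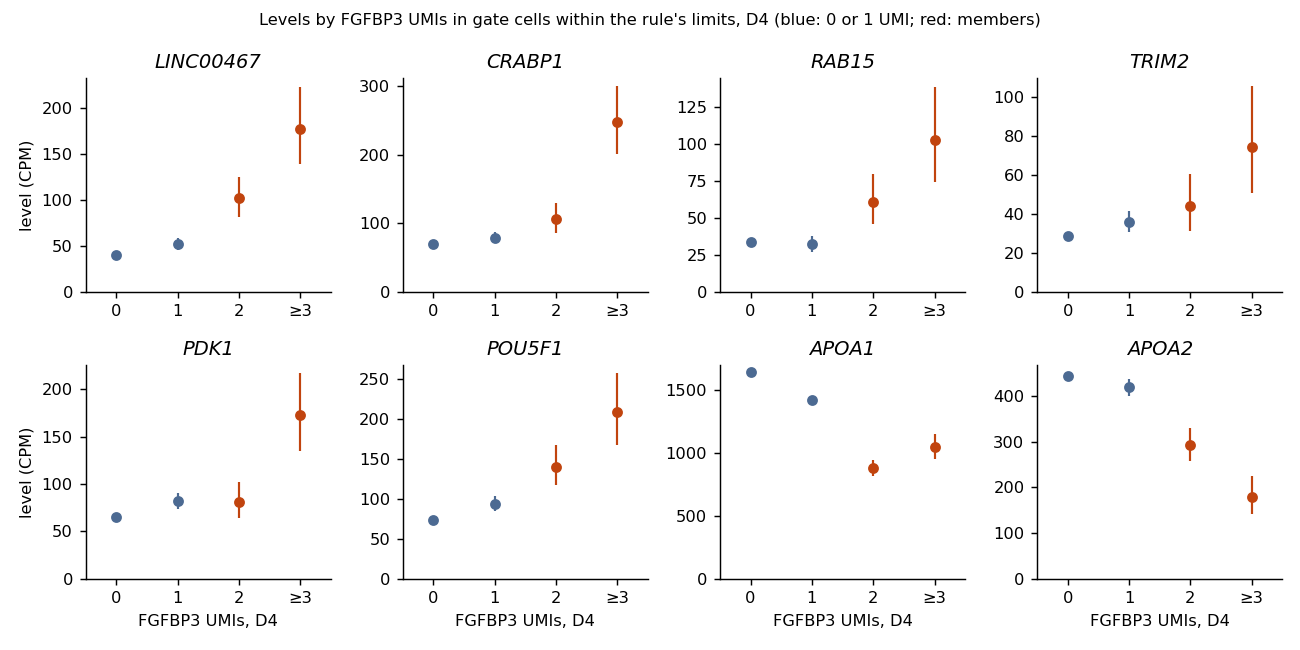
Level in CPM with exact 95% Poisson intervals of 8 genes in D4 gate cells within the members' limits, by the number of FGFBP3 UMIs in the cell (0, 1, 2, at least 3). LINC00467 goes from 40.0 to 177 CPM and APOA2 from 444 to 179.8 CPM.

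POU5F1 moved with the comparison. The rule allowed up to 5 POU5F1 UMIs, and members were at 162 CPM against 70.6 CPM in FGFBP3 = 0 cells at D4 (74.2 and 39.4 CPM at D6). At least 1 POU5F1 UMI was found in 80.6% of D4 members and 47.4% of FGFBP3 = 0 cells. Among D4 cells with 0 POU5F1 UMIs (19 members, 1810 FGFBP3 = 0 cells) LINC00467 was at 21.2 CPM in members against 26.3 CPM. The 19 members held few UMIs of each gene, so levels in this class are imprecise, and no difference within a class was tested. With 1 or 2 POU5F1 UMIs it was at 107 against 46.7 CPM, and with 3 to 5 at 187 against 87.4 CPM. CRABP1 was at 55.1 against 47.5 CPM in cells with 0 POU5F1 UMIs, and at 226 against 124 CPM with 3 to 5. The level of RAB15 was above that of the FGFBP3 = 0 cells in each class, at 63.6 against 30.1 CPM, 51.4 against 35.8 CPM, and 99.9 against 44.6 CPM. With the FGFBP3 = 0 cells weighted to the members' POU5F1 UMIs, a comparison added after the data were seen, the D4 log2 ratio was 0.88 for LINC00467, 0.60 for CRABP1 and 0.95 for RAB15. Of the D4 values of named genes, 7 moved out of their counting interval under this weighting and 31 stayed within it, and 10 genes in place of 22 were at least 2-fold higher.

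**Figure D5:**
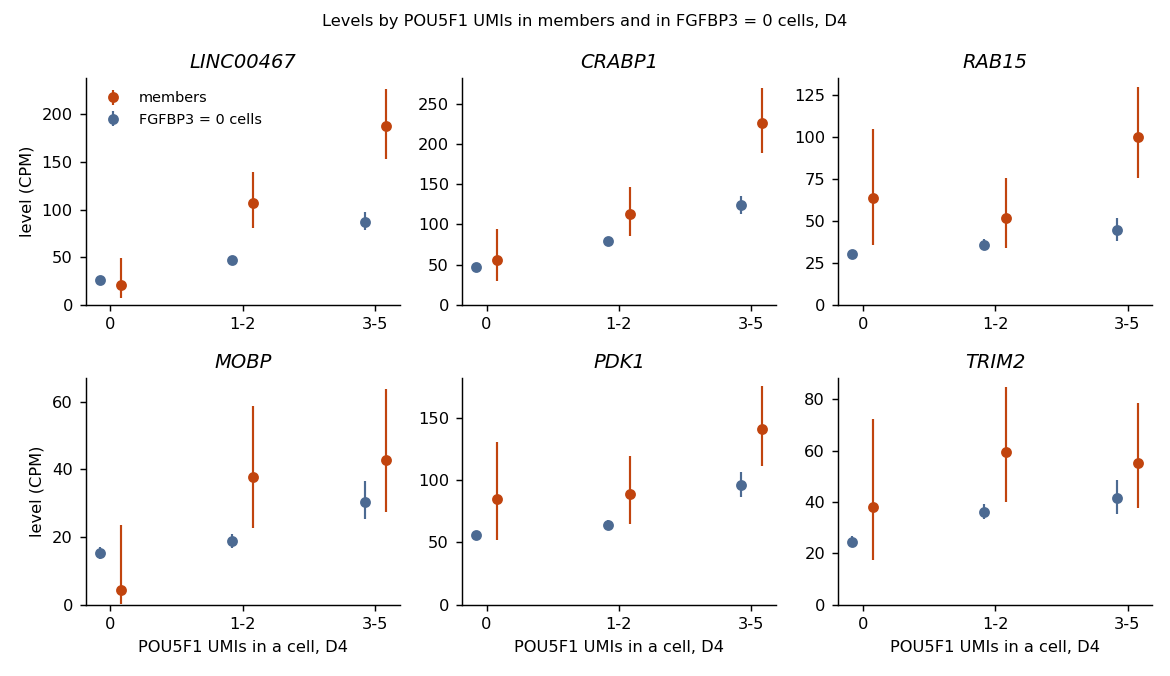
Level in CPM with exact 95% Poisson intervals of 6 genes in D4 members and FGFBP3 = 0 cells, by the number of POU5F1 UMIs in the cell (0, 1 to 2, 3 to 5). The groups lie together for LINC00467 at 0 POU5F1 UMIs (21.2 and 26.3 CPM) and apart at 3 to 5 (187 and 87.4 CPM).

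Cells that the rule left out gave a second reading of the same genes. At D4, 45 gate cells had at least 2 FGFBP3 UMIs but too many of CER1, NPPB or the last 3 genes together, and 711 such cells had none. The 711 were also part of the 3438 comparison cells above, while the 45 were not members. LINC00467 was at 154 CPM in the former and 41.7 CPM in the latter, 1.88 [1.56, 2.20]. CRABP1 was at 142 and 59.5 CPM, a log2 ratio of 1.26, and RAB15 at 81.2 and 34.6 CPM, 1.23. The leading 3 were thus higher with FGFBP3 in these cells too, while ERCC6L was at 11.4 and 18.1 CPM. The 45 cells were deeper than the 711, with a median of 15166 against 12037 UMIs. Of them 22.2% had over 20000 UMIs, against 8.16%, and the part of doublets was not tested. The 45 and the 711 cells were not matched on POU5F1 UMIs, and the part of POU5F1 in these ratios was not tested. FGFBP3 was not confined to cells low in CER1 and NPPB, since 5.23% [3.84, 6.94] of the 860 D4 cells over those limits had at least 2 UMIs, against 3.06% of those within them. The D4 cells over the limits were deeper, with a median of 12306.5 against 10738 UMIs. At D6 the shares were 0.688% [0.188, 1.75] over the limits and 0.871% within them. In epiblast-like cells the same split on FGFBP3 gave log2 ratios of -0.22 [-0.47, 0.03] for LINC00467, -0.14 for CRABP1 and -0.09 for RAB15. The difference between these ratios and those of the gate was not tested.

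APOA1 and APOA2, which encode apolipoproteins, were below a ratio of 1 in the D4 members. APOA1 was at 935 CPM against 1680.4 CPM, a log2 ratio of -0.85 [-0.93, -0.76], and APOA2 at 256 against 434 CPM, -0.76 [-0.92, -0.61]. APOB was at 68.4 against 108 CPM, and APOE at 4415 against 5693 CPM, -0.37. None reached 2-fold. Of 21 genes compared of the hypoblast and extra-embryonic endoderm list, 3 were above and 18 below a ratio of 1, none by 2-fold, with a median log2 ratio of -0.26 beside 0.02 for all genes. The 3 above were FOXA2, BMP2 and the endocytic adaptor DAB2. Of the yolk sac endoderm list all 6 compared genes were lower in members, APOA1, APOA2, APOB, VTN, LCN15 and HNF4A, with a median of -0.71. At D6 some of these genes were no lower in members and others were: APOA1 was at 12126 and 11977 CPM, 0.02 [-0.03, 0.06], and APOA2 at 1479 and 1179.6 CPM, 0.33 [0.19, 0.46], but APOE at 7149 and 8829.7 CPM, -0.30 [-0.36, -0.25]. The yolk sac list had 6 above and 7 below at D6, with a median of -0.12. At D6 the hypoblast list had 18 genes above and 9 below, with a median of 0.08 beside 0.08 for all genes. Of its 27 compared genes at D6, 3 were at least 2-fold higher and 1 lower, beside 3.76% and 2.68% of all genes. Of 13 in the yolk sac list, 1 was higher, AFP, and 2 were lower by that fold. AFP was also among the 3 higher genes of the hypoblast list, and all of its D6 UMIs were in 1 member.

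Part of what was lower at D4 depended on the choice of comparison cells, since 711 of the 3438 FGFBP3 = 0 cells were over the limits on CER1, NPPB and the last 3 genes that members had to meet. LEFTY1, a secreted NODAL antagonist of the AVE, was at 33.8 CPM in members and 158 CPM in all FGFBP3 = 0 cells, -2.23 [-2.69, -1.80], but at 41.9 CPM in those within the limits, -0.31. LEFTY2 was at 74.5 against 307 CPM, -2.04, and against 121 CPM within the limits, -0.70. The AVE list had 3 of 12 compared genes at least 2-fold lower (LEFTY1, LEFTY2 and GSC), beside 0.329% of all genes, and a median of -0.31, which was 0.07 within the limits. LEFTY1 and LEFTY2 are near-identical copies, so the split of their reads is uncertain. The actin-binding protein TAGLN was at 245 against 460.0 CPM, -0.91, and -0.12 within the limits. APOA1 was at -0.85 and at -0.81 within the limits, and LGALS1 at -0.83 and -0.78. LCN15 went from -0.88 to -1.13 within the limits, which is past 2-fold. The leading genes were within the limits at 1.65 for LINC00467, 1.11 for CRABP1 and 1.15 for RAB15.

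FGF pathway RNA was close to that of the FGFBP3 = 0 cells at D4. Of the ligands, FGF17 was at 211 against 317 CPM, -0.58, and 0.00 within the limits. FGF8 was at 20.0 against 15.2 CPM, 0.40 [-0.23, 0.96], and FGF4 had 0 UMIs. Of the receptors, FGFR1 was at 264 and 242 CPM, 0.13 [-0.03, 0.28], and FGFR4 at 58.4 and 57.0 CPM. The relatives FGFBP1 and FGFBP2 had 0 UMIs in members on both days. Of 15 genes compared in the list of FGF binding proteins, ligands, receptors and co-receptors, 8 were above and 7 below a ratio of 1, none by 2-fold, with a median of 0.03. Targets of FGF-ERK signalling were similar: 7 above, 5 below and a median of 0.11. The phosphatase DUSP6 was at 159.7 against 148 CPM, 0.11 [-0.10, 0.31], and the inhibitor SPRY2 at 56.1 against 75.9 CPM, -0.44 [-0.79, -0.10]. At D6 the FGF list had 7 above and 9 below, where 55.9% of the genes compared on both days were above, and 2 of 16 were at least 2-fold higher, beside 3.76% of all genes. These were the proteoglycan GPC3, at 158 against 66.3 CPM, 1.25 [0.82, 1.65], and FGFR2, at 27.8 against 11.8 CPM, 1.24 [0.10, 2.18].

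Among other pathways, CRABP1 was the 1 gene of 5 compared in the retinoic acid list that was at least 2-fold higher at D4, beside 0.258% of all genes. The degrading enzyme CYP26A1 was at 434 against 529 CPM at D4 and 473 against 897 CPM at D6, -0.92 [-1.16, -0.69], and CRABP2 at 181 against 235 CPM at D4. Of 17 cholesterol synthesis genes 13 were above and 4 below at D4, with a median of 0.21. Of 38 S phase genes 33 were above at D4, with a median of 0.19, and of 36 at D6 27 were above, with a median of 0.24. The G2M list had 20 above and 31 below at D4 (median -0.08), and 43 above and 9 below at D6 (median 0.33). No gene of the S phase, G2M or cholesterol lists was 2-fold different at D4. The WNT (median -0.06), BMP (0.06), basement membrane and matrix (-0.02), epithelium and mesenchyme (-0.02) and actomyosin (0.01) lists had no gene past 2-fold at D4. The stress and dissociation list, which could mark handling, had a median of 0.08 at D4 and -0.02 at D6.

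The remaining lists are given by their counts and medians, or by their sums, at D4, where the median of all genes was 0.02. The epiblast list had 7 above and 4 below (0.05), with 1 of 11 at least 2-fold higher beside 0.258% of all genes. The 1 compared gene of the extra-embryonic mesoderm list was at -1.36, beside 0.329% of all genes at least 2-fold lower. The NODAL and activin list had 3 genes above and 14 below, 3 of 17 past 2-fold (LEFTY1, LEFTY2 and GSC) beside 0.329% of all genes, with a median of -0.32 that was -0.09 within the limits. The antagonist FST, which binds activin, was at 217 against 355 CPM, -0.71 [-0.88, -0.54], and -0.55 within the limits. The definitive endoderm list had 7 above and 5 below (median 0.06), and the parietal endoderm list 1 above and 9 below (-0.20). Primitive streak and mesoderm genes were split evenly, 2 and 2, with 5 of the list at 0 UMIs and TBXT, the streak factor, at 3.07 CPM. The neural list summed to 242.7 CPM in members and 220.1 CPM in FGFBP3 = 0 cells, and the primordial germ cell list to 149.0 and 115.9 CPM, most of it PRDM1 (127.5 CPM), a repressor that endoderm shares. Both genes compared of the hedgehog list were lower (median -0.43). The IGF and PDGF list had 2 above and 6 below (-0.17), with IGFBP5 past 2-fold lower, 1 of 8 beside the same 0.329%. IGFBP5 was at 13.1 CPM in members, 23.9 CPM in gate cells within the members' limits and 61.0 CPM in those over them. The endocytosis list had 6 above and 5 below, a median of 0.00 at D4 and -0.14 at D6. Glycolysis and hypoxia genes had a median of 0.10 at D4 and 0.12 at D6, although PDK1 stood out among the named genes. MALAT1, a nuclear RNA used here to follow RNA quality, was at 4808 CPM in the D4 members, with a list sum of 5157.9 against 4941.4 CPM, and at D6 the sums were 8405.0 and 7121.6 CPM.

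At D6 the 26 members gave a noisier comparison. Of 8606 genes, 324 (3.76%) were at least 2-fold higher and 231 (2.68%) at least 2-fold lower, but the interval left out 0 for only 177 and 67 of them, and a compared gene had a median of 12 UMIs in members (45 at D4). Single cells decided several of the largest ratios. PRSS2, a trypsinogen with close copies in the genome, was at 111 against 22.4 CPM, but 31 of its 36 UMIs were in 1 member, and the log2 ratio of 2.31 was -0.50 without it. All 25 UMIs of AFP, the fetal serum protein of yolk sac, were in 1 member. DAB2, the endocytic adaptor, was spread over 9 members, at 95.9 against 30.2 CPM, 1.67 [1.10, 2.18], and stood higher in members at D4 too, 0.48 [0.14, 0.81]. RABGAP1L, a GTPase-activating protein, was at 43.3 against 11.7 CPM in 9 members, 1.88 [1.00, 2.65], and MIPOL1 at 52.6 against 16.5 CPM in 8 members, 1.67 [0.88, 2.36]. RABGAP1L, MIPOL1, PRSS2 and AFP were under 25 CPM in FGFBP3 = 0 cells and reached that level through the members alone. The mitotic checkpoint kinase BUB1B was at 77.3 against 27.0 CPM, 1.52. LAMA1, a laminin chain of basement membrane, was at 186 against 104 CPM, 0.84 [0.45, 1.21], while at D4 it was at 95.2 against 110.2 CPM. Lower in the D6 members were HNF4A, a regulator of hepatic and visceral endoderm genes, at 18.6 against 46.4 CPM, -1.32 [-2.77, -0.20], and the NODAL-related ligand GDF3, at 86.6 against 207 CPM, -1.26 [-1.85, -0.73]. PLSCR2, a phospholipid scramblase, was at 9.28 against 48.5 CPM, -2.39, and at 13.8 against 32.5 CPM at D4, -1.23. Against the D4 cells within the members' limits, at 19.7 CPM, it was at -0.51 [-1.28, 0.16].

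Of 8014 genes compared on both days, 180 were at least 2-fold higher and 213 at least 2-fold lower in members at D6. At D4 9 were at least 2-fold higher, and 3 of these also at D6: LINC00467 (not with thinned cells, -0.71), CRABP1 and the WNT modulator SFRP2 (17.7 against 8.41 CPM at D4, 15.5 against 6.28 CPM from 5 UMIs at D6, 1.30 [-0.34, 2.54]). SFRP2 was under 10 CPM in FGFBP3 = 0 cells on both days and entered through the members alone. A further 3 of the 9 were above a ratio of 1 at D6, where 55.9% of all genes were. Of 21 at least 2-fold lower at D4, 2 were so at D6, PLSCR2 and PHLDA3 (1 UMI in the D6 members). Of the 21, 10 were below a ratio of 1 at D6, where 55.9% of all genes were above it. Over the 8014 genes, the log2 ratios of the 2 days had a Pearson correlation of 0.13. Within the members' limits PLSCR2 was at -0.51 at D4 and so no longer past 2-fold, and PHLDA3 was at -1.09.

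Members of the 2 days were compared next, with the ratio in FGFBP3 = 0 cells beside each value. Of 8685 genes, 749 (8.62%) were at least 2-fold higher in D6 than in D4 members and 464 (5.34%) at least 2-fold lower, with the interval off 0 for 409 and 150. APOA1 went from 935 CPM at D4 to 12126 CPM at D6 in members, a log2 ratio of 3.70 [3.60, 3.79], beside 2.83 in the FGFBP3 = 0 cells. APOA4, another apolipoprotein, was at 1.54 and 173 CPM, a ratio of 6.82 beside 4.60. PDGFRA, a growth factor receptor of primitive endoderm, was at 2.30 and 105 CPM, 5.51 beside 3.23. The secreted WNT agonist RSPO3 was at 41.5 and 541 CPM, 3.71 beside 2.66. These genes were chosen for their ratio in members, so that the larger values there are no finding. They were higher at D6 in the FGFBP3 = 0 cells too. HHEX, a factor of the AVE outside that choice, was at 64.5 CPM in the D4 and 43.3 CPM in the D6 members, and at 70.7 and 76.7 CPM in the FGFBP3 = 0 cells. IGFBP5 (4.38, with 44 of its 88 D6 UMIs in 1 member), FOXQ1 (4.36), NTS (3.65) and GRP completed the 8 largest. Among the lowest ratios were those of FOSB (-1.77 beside -0.78), LINC00467 (-1.65 beside -1.26), NELFE (-1.60 beside -0.23), PDK1 (-1.57 beside -0.69), FOS (-1.41 beside -0.34), ID4 (-1.41 beside -1.02) and CTSD (-1.28 beside -0.38). FOS and FOSB are immediate early genes. The difference between members and FGFBP3 = 0 cells in these ratios was not tested.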

How the data were processed

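The authors aligned the droplet 3′ reads and deposited raw UMI counts per gene and cell, per the file headers made with Cell Ranger 6.0.1. The submitters' processing notes also name hg38, R 4.0.3 and Seurat 4.0.1; the annotation version is not given in the sources used here. The authors' cell classes were not used, and the 7 bisulfite samples were not analysed here. Members and gene lists were chosen with earlier results of these data known.

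Cells were taken by the limits given above, and UMI counts were summed per group and scaled to CPM. Intervals are exact: Poisson for levels, conditional binomial for ratios, Clopper-Pearson for shares. Genes entered a comparison at a mean of at least 10 CPM over both groups. Named genes left out rule genes, mitochondrial genes, clone-named genes and some sex-linked genes, but not every X-linked gene, since ERCC6L was kept. At 25 CPM or more they were the 15 largest and 10 smallest ratios at D4 and the 8 largest and smallest at D6. At 50 CPM or more they were the 8 largest differences in each direction between days. From each of 31 lists (510 genes) they were those past 2-fold or, failing any, the most abundant. PHLDA3, and the list genes named as examples, were chosen after their values were seen. No doublet caller was run. The UMI maximum and the SOX2 and POU5F1 limits stood in, with stricter limits among the alternatives, which also varied the FGFBP3 limit, the comparison cells, depth, the level minimum and the fold. Python 3.11.15, numpy 2.4.6, scipy 1.17.1, pandas 2.3.3 and matplotlib 3.10.9 were used, and the scripts were tested on simulated data. Genes that the naming rule gave and that are not named in the text are not reported here.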

Additional observations from a re-analysis of the deposited data

Results flagged for a closer look

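A group of 4 named genes lay on opposite sides of a ratio of 1 on the 2 days, each with an interval that left out 0; the difference between days was not tested, since each day was 1 library. ACVR2A, an activin receptor, had a log2 ratio of members over FGFBP3 = 0 cells of 1.02 [0.18, 1.75] at D6 (46.4 against 22.8 CPM) and -0.91 [-1.92, -0.06] at D4 (8.45 against 15.8 CPM). FOS was at -0.74 [-1.40, -0.16] at D6 (71.2 against 119 CPM) and 0.34 [0.15, 0.52] at D4 (190 against 150 CPM). IGFBP5, which binds insulin-like growth factors, was at 0.80 [0.48, 1.11] at D6 (272 against 156 CPM), with 44 of 88 UMIs in 1 member, and at -1.26 [-2.04, -0.57] at D4 (13.1 against 31.3 CPM). D4 gate cells within the members' limits were at 23.9 CPM of IGFBP5. RSPO3 was at 0.30 [0.08, 0.52] at D6 (541 against 440 CPM) and -0.75 [-1.17, -0.36] at D4 (41.5 against 69.8 CPM).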

How the results depend on the processing

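Counts of genes past 2-fold moved by over 1.5 times under the following alternatives. The counts at D4 (22 higher, 28 lower) were 0 and 12 with at least 1 FGFBP3 UMI, 185 and 251 with at least 3, 241 and 283 with cells thinned to the lower UMI limit, 464 and 402 with POU5F1 at 0, 3 and 2 for genes at 50 CPM or more, 1782 and 531 with no minimum level, and 217 and 218 at 1.5-fold. They were also 38 higher with a mitochondrial share of at most 5% and 49 lower with at most 20000 UMIs. In the same order the D6 counts (324 and 231) were 0 and 3, 1874 and 485, 1123 and 726, 804 and 511, 8 and 2, 1863 and 601, and 1228 and 704, and the D6 over D4 count (1213) was 321, 2722, 2467, 2433, 158, 2994 and 2761. The share of members (1.07% at D4, 0.258% at D6) was 5.18% and 2.88% with at least 1 FGFBP3 UMI, 0.361% and 0.0297% with at least 3, 0.208% and 0.139% with POU5F1 at 0, and 0.0983% and 0.0297% when the rule was applied after thinning to the lower UMI limit. Alternatives chosen after seeing the data left out, for each gene, the member with the most UMIs, or weighted the FGFBP3 = 0 cells to the members' POU5F1 UMIs, which left 10 genes higher at D4. Among named genes past 2-fold, the log2 ratios that reversed were those of LINC00467 with POU5F1 at 0 at D4 (-0.31) and thinned at D6 (-0.71), of AFP (-1.04), CSTF3 (0.087), HPGD (-0.16), PRAP1 (-0.011) and PRSS2 (-0.021) at D6 with at least 1 FGFBP3 UMI, of HPGD with POU5F1 at 0 (-1.53), and without the top member of HPGD (-0.032) and PRSS2 (-0.50). Named genes under 2-fold changed sign in another 44 values of 26 log2 ratios. Among these were MOBP (-1.85), C9orf135 (-0.67) and MBNL3 (0.17) at D4 with POU5F1 at 0, and TAGLN at D6 within the members' limits (0.14). The causes were not tested. In the counts a level of 0 was set to the lowest level above 0 in its group. A group at 0 UMIs gave no ratio for 14 genes at D6 with at least 3 FGFBP3 UMIs (3 members, with 0 UMIs of CRABP1), 3 at D6 and 1 at D4 with POU5F1 at 0, and 1 thinned at D6. Where it had a ratio, CRABP1 stayed above 0 (0.22 to 1.87 at D4, 0.01 to 1.75 at D6), as did RAB15 at D4 (0.30 to 1.61), while APOA1 stayed below 0 at D4 (-0.95 to -0.29). The D6 comparison rests on 26 members, with a median of 12 UMIs of a compared gene in them. No paired analysis was possible because each day had 1 scRNA-seq library.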
